A study of Mus musculus and Mus spretus with 72 samples.

Results

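The genes of myelin and of the oligodendrocyte lineage followed on the brain arrays were Cnp, Mbp, Mobp, Mal, Cldn11, Mag and Mog, whose products belong to the myelin sheath or to its contact with the axon, and the transcription factors Olig1, Olig2 and Sox10. They were chosen by name, as 10 of the 14386 gene symbols that the brain arrays measured, and they had 11 probes among 22089. Each probe was a pair of neighbouring spots carrying the same identifiers, and each gene had 1 probe except Mbp, which had 2, called A and B here. In brain, 9 probes of 8 genes could be tested in all groups. Cldn11 and Olig1 had values on 12 of 24 arrays and were outside the tests over all groups.

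Every array set RNA of 1 male mouse, about 12 weeks old, against a pool of brain RNA from 9 C57BL6 laboratory mice. The array titles gave 5 groups: Mus musculus domesticus (dom, 6 brain arrays), Mus musculus musculus (mus, 6 arrays), Mus musculus castaneus (cas, 3 arrays), Mus musculus with no sub-species given (ssp, 6 arrays) and Mus spretus (spretus, 3 arrays). Together dom, mus, cas and ssp make up the 4 musculus groups. The labels give no strain, locality or treatment for these mice, and p-values measure the spread between arrays. Array 8 of mus carries the name mus in its title and domesticus in its channel label, and it was kept in mus. Values are log ratios taken as log2 of sample over pool. Neither the log base nor the direction is stated in the sources used here, and the direction is called likely because the sample is labelled as the second channel on every array. Arrays were centred, so a value of 0 is the array median, which is taken as the level of the pool. Because the reference was brain RNA too, absolute levels are not measured, and the labelled tissue cannot be checked against its markers.

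Myelin is the lipid-rich membrane that oligodendrocytes wrap around axons in the brain and spinal cord, and it speeds the conduction of nerve impulses. Its main structural proteins hold the membrane layers together, while other members seal the layers or recognise the axon. Olig2, Olig1 and Sox10 direct cells into the oligodendrocyte lineage, and Sox10 binds regulatory DNA of many myelin genes in mature cells.

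Upstream sequence was at hand for 7 members, in 9 windows of 250 bases before the annotated RefSeq starts (build GRCm38.p6). The windows of 3 genes are shown because they stand for the range of Sox-type words in the set. Mobp has the most matches and Olig2 its only match. Mog, whose spretus arrays stood above nearly all others on the mean of 2 spots, has none. The windows are chr9:120149492-120149741 on the plus strand for Mobp, chr16:91225300-91225549 on the plus strand for Olig2 and chr17:37023399-37023648 on the minus strand for Mog. Each is written 5′ to 3′ along the gene, and capitals mark ACAAAG or AACAAT, words of the kind that Sox factors bind, on either strand.
Mobp: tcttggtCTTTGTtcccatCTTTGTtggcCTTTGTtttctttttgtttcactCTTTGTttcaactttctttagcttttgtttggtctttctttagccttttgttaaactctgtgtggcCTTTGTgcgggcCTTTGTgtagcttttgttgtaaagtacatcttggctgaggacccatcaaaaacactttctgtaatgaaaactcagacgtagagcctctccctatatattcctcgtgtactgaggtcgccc
Olig2: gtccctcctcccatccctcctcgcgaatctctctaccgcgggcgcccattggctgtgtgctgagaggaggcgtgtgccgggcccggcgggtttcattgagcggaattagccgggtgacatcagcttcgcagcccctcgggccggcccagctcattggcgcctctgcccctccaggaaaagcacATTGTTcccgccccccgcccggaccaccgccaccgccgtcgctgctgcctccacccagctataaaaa
Mog: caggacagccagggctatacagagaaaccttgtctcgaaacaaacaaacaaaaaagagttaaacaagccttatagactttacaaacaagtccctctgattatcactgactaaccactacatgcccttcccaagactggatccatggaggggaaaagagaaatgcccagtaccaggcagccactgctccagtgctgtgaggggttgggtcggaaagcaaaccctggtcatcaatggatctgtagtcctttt
The Mobp window held 6 copies of ACAAAG, all on the minus strand. Of 32851 RefSeq windows of the same length, it was the only 1 with as many. ACAAAG was found in windows of 3 of the 7 members (Cnp, Mag and Mobp) and in 16.5% of all windows. AACAAT was found for 1 of 7 (Olig2) and in 9.42% of all windows. The E-box CANNTG, the word that Olig factors bind, was found for 2 of 7 (Cnp and Mag) and in 66.2% of all windows. These are letter matches in short windows, with no measurement of binding.

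Most values lay close to the pool. Of 240 member values on brain arrays, 217 were within 0.3 of 0 on the log2 scale, which is 90.4% against 88.0% over all probes. With limma, 0 of the 9 tested probes passed an adjusted p of 0.05 in any of the 4 contrasts between groups, in the mean of the 4 musculus groups against the pool, or in the F test over the 5 groups. The share of all 20621 probes that passed was 0.223% for mus minus dom, 0.00970% for the cas contrast (against the average of dom and mus), 0.0970% for the ssp contrast (against the average of dom, mus and cas), 3.95% for the spretus contrast (against the average of the 4 musculus groups), 8.95% against the pool and 3.28% in the F test. At an unadjusted p under 0.05, 1 of 9 member probes passed in each of the 4 group contrasts, 0 against the pool and 2 (Mag and Mog) in the F test. The matching shares of all probes were 9.33%, 12.0%, 15.7%, 19.2%, 25.5% and 22.7%. Brain tissue was measured whole, so fewer oligodendrocytes and less RNA per oligodendrocyte cannot be told apart in any of these values.

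**Figure D1:**
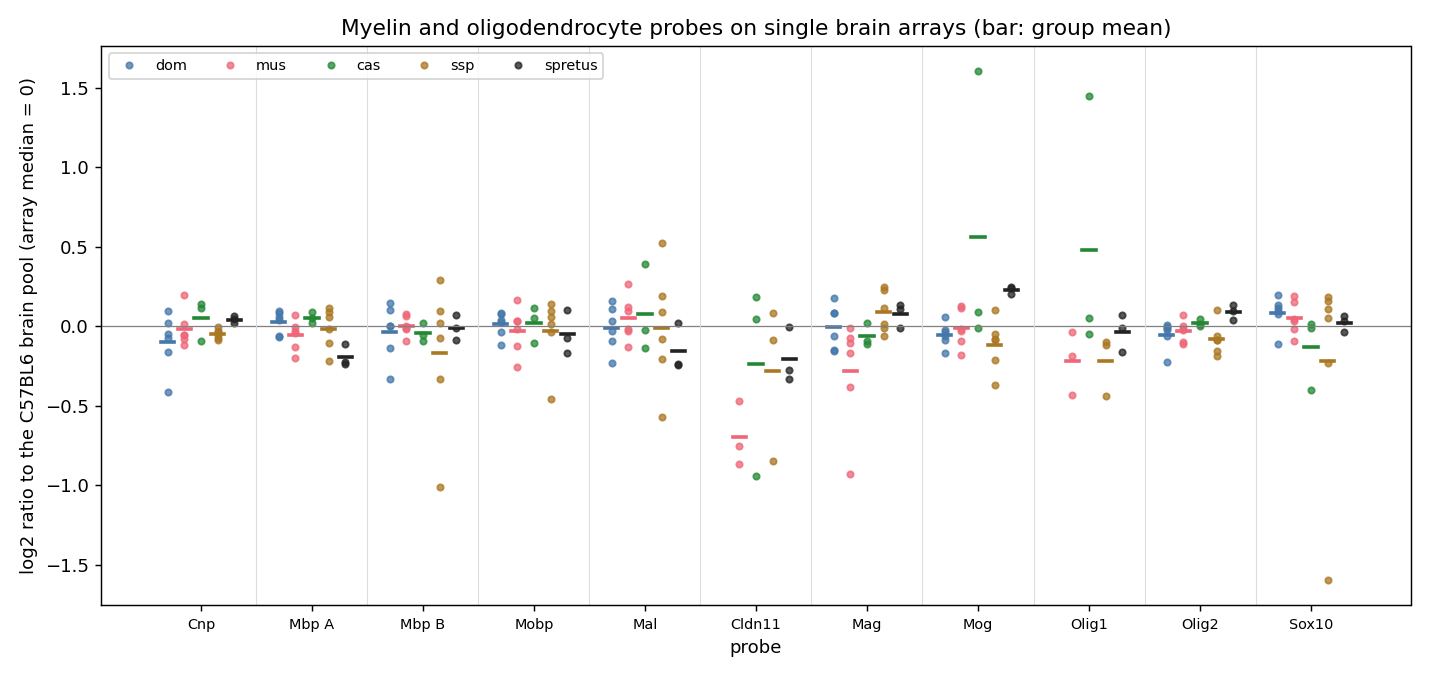
Log2 ratio to the C57BL6 brain pool (array median set to 0) for the 11 probes, 1 point per brain array, coloured by group, with a bar at each group mean. Most points lie within 0.3 of 0. Mog and Olig1 each have 1 cas array above 1.4, and Sox10 has 1 ssp array at -1.60. Cldn11 is low in all 3 mus arrays that have a value, 1 of which has conflicting labels.

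**Figure D2:**
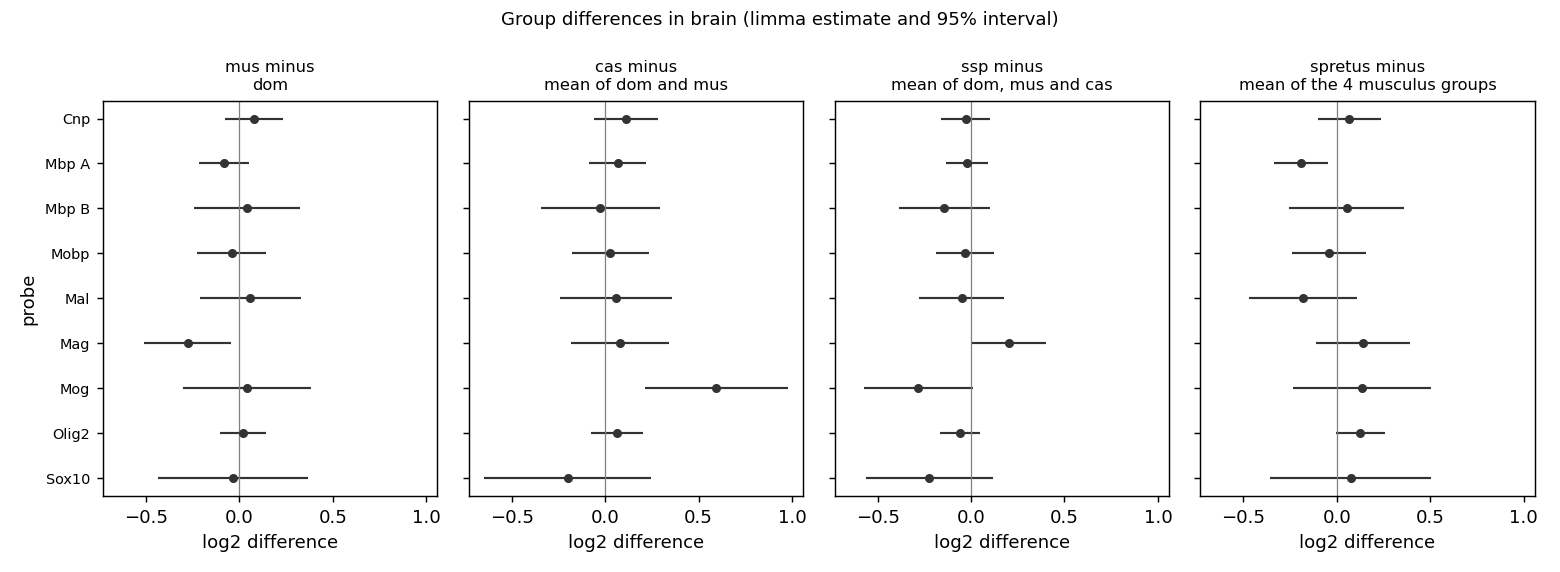
Estimated group differences in brain on the log2 scale, with 95% intervals from limma, for the 9 probes with values in all groups. Intervals that leave out 0 before adjustment belong to Mag in mus minus dom and in the ssp contrast, Mog in the cas contrast and Mbp A in the spretus contrast.

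Myelin basic protein, encoded by Mbp, sticks the inner faces of the membrane layers together. On probe A the spretus arrays read -0.24, -0.11 and -0.23, the last from 1 spot only. The lowest, median and highest log2 ratios were -0.07, 0.05 and 0.10 in dom, -0.20, -0.04 and 0.07 in mus, and -0.22, 0.02 and 0.11 in ssp, and the cas arrays read 0.02, 0.09 and 0.05. All 3 spretus values were below the pool, and they overlapped the lowest mus and ssp values. The spretus contrast was -0.19 ± 0.07 (SE) on the log2 scale, with a 95% interval from -0.34 to -0.05 and a limma adjusted p of 0.119, the lowest among the members in that contrast. With array quality weights it was -0.18 and the adjusted p was 0.0345 (limma). Those weights raised the probes called in this contrast from 814 to 3187 of 20621.

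Probe B of Mbp did not show this. Its spretus arrays read -0.08, 0.07 and -0.01, and its spretus contrast was 0.05 ± 0.15 (adjusted p 0.892, limma). The highest and lowest values of probe B both came from ssp, at 0.29 on array 4 and -1.01 on array 3, where the paired spots read -1.50 and -0.51. Over the 24 arrays, with group means removed, the log ratios of the 2 Mbp probes had a Pearson r of -0.02 (permutation p 0.966) and a Spearman rho of 0.29 (p 0.250). Without the 2 arrays farthest from the median of probe A, r was 0.30. Array 3 of ssp, the lowest on probe B, was not among the arrays left out. The spread also differed: the SD within groups was 0.0933 for probe A, at percentile 2.77 of all probes, and 0.256 for probe B, at percentile 84.6 (0.149 without ssp array 3).

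Mobp encodes a small basic protein of the compact membrane. Its group means lay between -0.05 (spretus) and 0.02 (cas), and its contrasts between -0.04 and 0.03 on the log2 scale, all with adjusted p of 0.861 or more (limma). The largest departure was -0.46 on ssp array 5, where the spots read -0.22 and -0.70. Cnp encodes an enzyme of the uncompacted cytoplasm of the sheath. Its 24 values ran from -0.42 on dom array 10 to 0.20 on mus array 5, and its spretus values were tightly placed at 0.04, 0.06 and 0.02. Its spretus contrast was 0.07 ± 0.08, with a 95% interval from -0.10 to 0.23. For both genes the intervals of all 4 group contrasts lay within 0.3 of 0.

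Mal encodes a membrane protein involved in sorting other proteins to myelin and to apical surfaces. It varied most in ssp, where the lowest, median and highest values were -0.57, 0.00 and 0.52, and the 3 spretus arrays read 0.02, -0.24 and -0.24. Both the lowest and the highest value of Mal thus fell in 1 group, and spretus lay inside that range. The spretus contrast was -0.18 ± 0.14 (adjusted p 0.519, limma).

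Cldn11 encodes the claudin that seals the layers of central myelin; the same protein forms junctions between Sertoli cells in the testis. In brain it had values on 12 arrays only: the mus arrays 5, 7 and 8 read -0.47, -0.75 and -0.87, the cas arrays -0.94, 0.18 and 0.05, the ssp arrays 4, 5 and 6 -0.09, -0.85 and 0.08, and the spretus arrays -0.27, -0.33 and -0.01. No dom array had a value. All 3 mus values were below all 3 spretus values, while cas and ssp each held 1 low array and 2 near 0. The low cas array read -0.96 and -0.93 on its paired spots, and the low ssp array -0.79 and -0.90. The spots of mus array 8, whose labels conflict, lay further apart, at -0.58 and -1.15. The SD within groups was 0.416, at percentile 97.7 of all probes, against 0.0954 for the mean of 2 spots as estimated from the spot differences. The SD within groups was thus 4.36 times that from the spots, and 3.04 times without cas array 1. The median over all probes was 1.46 times. In testis, Cldn11 had a mean log2 ratio to the testis pool of -0.37 ± 0.17 (SD, n = 4) in dom, -0.04 ± 0.12 (n = 2) in mus, -0.39 ± 0.11 (n = 3) in cas and -0.34 ± 0.17 (n = 3) in spretus.

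The empty values of Cldn11 and Olig1 followed sets of arrays that share empty spots. The brain arrays fell into 3 such sets, of 13, 10 and 1 arrays; set 1 held all 6 dom arrays, mus arrays 2, 3, 4 and 8 and ssp arrays 1 to 3, set 2 held the remaining mus and ssp arrays, cas arrays 1 and 2 and all spretus arrays, and set 3 held cas array 3. The labels do not name these sets. Mus array 8, the array with conflicting labels, had values on 249 of 1215 spots that were empty on every other brain array of its set, where other arrays of the set had at most 2; Cldn11 and Olig1 were among them. Within set 2, the mean of the mus, cas and ssp arrays against the pool was -0.42 ± 0.14 for Cldn11 (adjusted p 0.172, limma) and -0.18 ± 0.06 for Olig1 (adjusted p 0.184).

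Mag encodes an adhesion molecule of the innermost layer that faces the axon. In mus the lowest, median and highest log2 ratios were -0.93, -0.14 and -0.01, against -0.16, 0.01 and 0.18 in dom and -0.06, 0.06 and 0.25 in ssp; the cas arrays read 0.02, -0.09 and -0.11 and the spretus arrays 0.13, -0.01 and 0.11. All 6 mus values were below the pool, yet they overlapped those of dom. The lowest, on mus array 3, had spots at -0.51 and -1.36. The next lowest was -0.38 on mus array 8, whose labels conflict, with spots at -0.575 and -0.19. The difference mus minus dom was -0.28 ± 0.11 (95% interval -0.51 to -0.04, adjusted p 0.403, limma), or -0.15 ± 0.08 without mus array 3 (adjusted p 0.696), and the ssp contrast was 0.20 ± 0.10 (adjusted p 0.312). The F test over the 5 groups gave an unadjusted p of 0.0315 and an adjusted p of 0.179.

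Mog encodes an immunoglobulin-type protein on the outer face of the sheath. The spretus arrays read 0.20, 0.24 and 0.25. The lowest, median and highest values were -0.17, -0.05 and 0.06 in dom, -0.18, -0.02 and 0.13 in mus, and -0.37, -0.08 and 0.10 in ssp, and the cas arrays read 0.09, -0.01 and 1.60. On the mean of the 2 spots, spretus was thus above 20 of the 21 musculus arrays, and the exception was cas array 3. First spots alone read 0.17, 0.13 and 0.12 in spretus, and overlapped dom array 1 (0.18), mus array 8 (0.17) and ssp array 2 (0.42). On second spots spretus read 0.24, 0.34 and 0.37, and cas array 3 was the exception again. On that array the spots of Mog read 0.55 and 2.66, a gap of 2.11, where 1.30% of all spot pairs in brain differed by over 1.

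The Mog contrasts changed with this array. With it, the spretus contrast was 0.13 ± 0.18 on the log2 scale (adjusted p 0.737, limma), and the cas contrast was 0.59 ± 0.19 (adjusted p 0.237). Without cas array 3 the spretus contrast was 0.26 ± 0.08 (adjusted p 0.0419). With the set of shared empty spots as a term, which leaves cas array 3 no weight in the contrast because it is alone in its set, it was 0.36 ± 0.08 (adjusted p 0.00855). Within set 2 it was 0.33 ± 0.09 (adjusted p 0.112). When only the spot pairs that differ by over 1 were left out, it was 0.26 ± 0.08 (adjusted p 0.0506) and the cas contrast was 0.07 ± 0.10 (adjusted p 0.807). Leaving out cas array 1 or cas array 2 raised the cas contrast to 0.83 (adjusted p 0.0424) or 0.88 (adjusted p 0.0169), since cas array 3 then weighed more. With the first spot of each pair, no member probe passed in the spretus contrast (lowest adjusted p 0.177, limma).

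**Figure D3:**
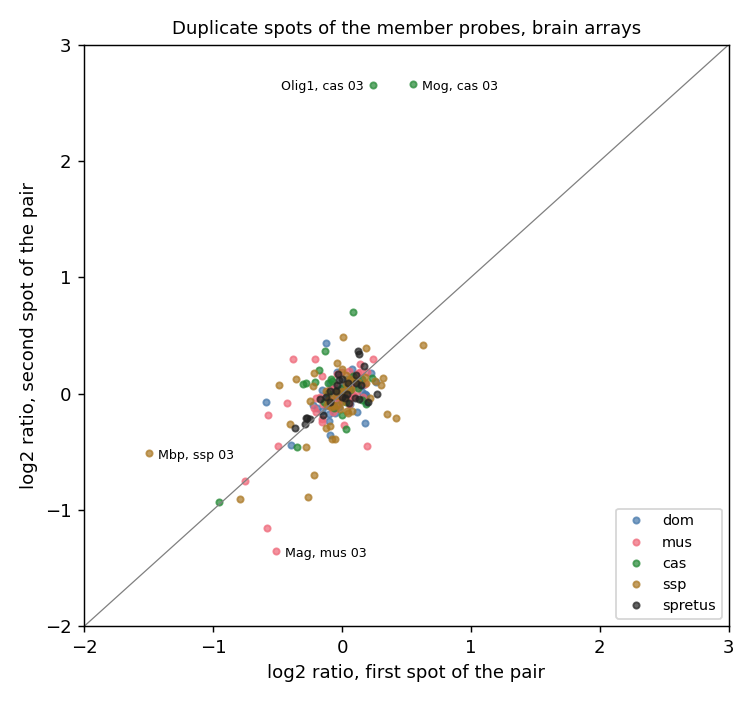
First against second spot of each pair for the 11 probes on the 24 brain arrays (log2 ratio, array median set to 0), with the line of equal values. Of 228 member pairs with both spots, 4 differ by over 0.8; they are named on the plot, and the pairs of Mog and Olig1 on cas array 3 share a second spot near 2.65.

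Of the transcription factors, Olig1 had the same coverage as Cldn11. Its values were -0.19, -0.44 and -0.04 on mus arrays 5, 7 and 8, 0.05, -0.05 and 1.45 in cas, -0.12, -0.10 and -0.44 on ssp arrays 4 to 6, and 0.07, -0.01 and -0.16 in spretus. All 3 mus and all 3 ssp values were below the pool, and the only value beyond 0.1 above it was again cas array 3, where the spots read 0.24 and 2.65. The values on mus arrays 7 and 8, ssp array 6 and spretus array 3 each rest on 1 spot.

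Olig2, which starts the lineage, was the steadiest member. Its 24 values ran from -0.22 on dom array 6 to 0.13 in spretus, and its SD within groups of 0.0788 stood at percentile 0.592 of all probes. The spretus arrays read 0.04, 0.10 and 0.13 and the cas arrays 0.05, 0.00 and 0.01. The medians were -0.02 in dom, -0.02 in mus and -0.09 in ssp, and the highest values of the last 2 were 0.07 and 0.10. All 3 spretus values lay above the pool and overlapped the highest mus and ssp values. The spretus contrast was 0.13 ± 0.06 (95% interval -0.01 to 0.26, adjusted p 0.292, limma).

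Sox10 had lowest, median and highest values of -0.11, 0.11 and 0.20 in dom, -0.09, 0.04 and 0.19 in mus and -1.60, 0.08 and 0.18 in ssp; the cas arrays read -0.01, 0.02 and -0.40 and the spretus arrays -0.04, 0.06 and 0.03. Apart from ssp array 4, cas array 3 and ssp array 5 (-0.23), all values lay between -0.11 and 0.20, and the groups overlapped. The value of -1.60 on ssp array 4 rests on 1 spot, since the other spot of the pair was empty. The ssp contrast for Sox10 was -0.22 ± 0.17 (adjusted p 0.520, limma), with a 95% interval from -0.56 to 0.12. Without ssp array 4 its sign turned, to 0.05 ± 0.07 (adjusted p 0.785), and the SD within groups fell from 0.371 to 0.137.

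Against the C57BL6 pool, the mean of the 4 musculus groups ranged over the 9 probes from -0.06 (Mag) to 0.09 (Mog), with standard errors of 0.02 to 0.08. The Mog value turned to -0.04 ± 0.03 without cas array 3 (adjusted p 0.484, limma). The narrowest 95% interval, for Olig2, ran from -0.08 to 0.01. The median size of the difference was 0.04 for the members and 0.05 for all probes. In the spretus contrast the median size was 0.13 for the members and 0.11 for all probes, and in mus minus dom 0.04 and 0.08.

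The wider list held 53 other genes of myelin and the oligodendrocyte lineage, of which 33 were tested with 38 probes. No probe passed in mus minus dom, the cas contrast, the ssp contrast or the F test. With limma at an unadjusted p under 0.05 the counts were 3, 2, 4 and 10 of 38. The matching shares of all probes were 9.33%, 12.0%, 15.7% and 22.7%. In the spretus contrast 2 of 38 passed, 1 higher and 1 lower, beside 3.95% of all probes. Nkx2-2, a transcription factor of oligodendrocyte differentiation, read 0.33, 0.08 and 0.34 in spretus and between -0.39 and 0.17 in the 4 musculus groups. It was 0.33 ± 0.09 higher (adjusted p 0.0342). Ndrg1, a stress-responsive gene that peripheral myelin needs, read -0.79, -0.18 and -0.29 in spretus on 1 of its 2 probes, a contrast of -0.43 ± 0.12 (adjusted p 0.0390, limma). Its other probe, listed under the same identifier, gave -0.05 ± 0.10 (adjusted p 0.846).

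Neither call was steady. That of Nkx2-2 was lost without spretus array 1 (0.29, adjusted p 0.199) and without array 3 (0.28, adjusted p 0.199), within set 2 (0.30, adjusted p 0.197), with the set as a term (0.28, adjusted p 0.0805) and with the first spot of each pair (0.36, adjusted p 0.0843), with the difference little changed. That of Ndrg1 was lost without spretus array 1, where the difference shrank to -0.25 (adjusted p 0.438). It was also lost, with differences close to the full one, without spretus array 3 (-0.49, adjusted p 0.0747), dom array 3 (-0.43, adjusted p 0.0517) or cas array 2 (-0.40, adjusted p 0.0557), with the first spot of each pair (-0.40, adjusted p 0.113) and within set 2 (-0.44, adjusted p 0.207).

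Against the pool, 5 of the 38 probes passed, 2 higher and 3 lower in the 4 musculus groups, beside 8.95% of all probes. The same pool is on every array, so this test leaves out the spread of C57BL6 itself. With the sample as the second channel on every array, a difference from the pool and a channel effect cannot be told apart. The RNA-binding regulator Qk was lower by -0.25 ± 0.05 on 1 of its 3 probes (adjusted p 0.00253, limma), while its other probes gave 0.08 ± 0.04 (adjusted p 0.236) and 0.00 ± 0.02 (adjusted p 0.927). Ermn, a cytoskeletal protein of oligodendrocytes, was higher by 0.23 ± 0.05 (adjusted p 0.00700) and Plekhb1 by 0.13 ± 0.04 (adjusted p 0.0187). Their 3 spretus arrays lay below the pool in both cases, with means of -0.19 and -0.18; the spretus contrasts of -0.42 ± 0.14 and -0.32 ± 0.10 had adjusted p of 0.0827 and 0.0590. Pmp22 (-0.12 ± 0.03, adjusted p 0.0226) and Aspa (-0.12 ± 0.03, adjusted p 0.0268) fall outside the naming rule and are named after their values were seen. The other Pmp22 probe gave -0.08 ± 0.07 (adjusted p 0.471). Within set 2 none of the 5 passed, with adjusted p between 0.182 and 0.378: the differences were smaller for Ermn (0.10), Qk (-0.15) and Plekhb1 (0.11), and as large or larger for Aspa (-0.12) and Pmp22 (-0.16). Within set 1 Qk (-0.20), Pmp22 (-0.09) and Aspa (-0.08) did not pass. The Aspa call was also lost without cas array 2 or cas array 3, and the Pmp22 call without cas array 2. Of the marker probes of neurons, astrocytes, microglia, endothelium, choroid plexus, oligodendrocyte progenitors and Schwann cells, 0 passed in the 4 group contrasts (limma). At an unadjusted p under 0.05, mus minus dom had 2 of 7 microglia probes, beside 9.33% of all probes. The cas contrast had 1 of 8 neuron, 1 of 13 astrocyte and 1 of 2 progenitor probes, beside 12.0%. In the ssp contrast there were 4 of 13 astrocyte, 2 of 4 choroid plexus and 1 of 8 neuron probes, beside 15.7%. The spretus contrast had 3 of 13 astrocyte, 2 of 7 microglia, 1 of 4 choroid plexus and 1 of 2 Schwann cell probes, beside 19.2%. Lists not named for a contrast had 0. Against the pool, 2 of 8 neuron probes, 3 of 13 astrocyte probes and 1 of 6 endothelial probes were higher, beside 8.95% of all probes called in either direction. Pmp22, also the Schwann cell marker tested, was the only marker called lower there. In the F test over the 5 groups 1 of 8 neuron probes passed, beside 3.28% of all probes. It was that of the neurofilament gene Nefm (adjusted p 0.0206, limma F test), and none of the other lists' probes passed. Their part in the results on myelin genes was not tested.

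Genes of a shared cell type can vary together from animal to animal, so the members were set against each other over single brain arrays after subtracting group means. Among the 8 genes with a value on every array there were 28 pairs, with a median r of -0.03, a range from -0.53 to 0.52, and 13 pairs above 0. Over all pairs of probes with complete values the median was 0.00 and the quartiles were -0.18 and 0.19. An r of 0.5 or more was reached by 1 member pair, or 3.57%, and by 3.22% of all probe pairs. The 15 pairs of sheath genes had a median r of -0.05, with 6 above 0. All points share the pool and the deposited normalisation. For Mbp probe A and Olig2 the SD within groups was 0.78 and 0.87 times that from the spots. For Olig1 it was 1.01 times, and 1.47 times without cas array 3. The median over all probes was 1.46. For Mbp probe A, Olig2 and, with cas array 3 included, Olig1, a low r cannot tell absent covariation from spot noise.

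Of all 45 member pairs, 0 passed a Benjamini-Hochberg adjusted permutation p of 0.05 for Pearson's r, the lowest being 0.786, or for Spearman's rho, the lowest being 0.984. Unadjusted, 1 pair passed for r (Mog and Olig2, r -0.23, permutation p 0.0392) and 1 for rho (Mag and Mog, rho -0.44, permutation p 0.0257). The sign of r was the same within set 1 and within set 2 for 16 of the 28 pairs.

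The highest r over 24 arrays was that of Mal and Mobp, at 0.52 (permutation p 0.0629, adjusted 0.786; rho 0.27, permutation p 0.255). It was 0.14 without ssp arrays 4 and 5, 0.14 within set 1 and 0.59 within set 2. Without ssp array 5 alone, which was low for both genes, it was 0.17, and with any other single array left out it was 0.49 to 0.62. Olig2 and Sox10 had the lowest, at -0.53 (permutation p 0.107, adjusted 0.786; rho -0.16, permutation p 0.466), and -0.18 without dom array 6 and ssp array 4. Without ssp array 4 alone it was 0.07. Mog and Olig1 had r 0.92 over 12 arrays (permutation p 0.111, adjusted 0.786; rho 0.73, permutation p 0.0773). This was 0.60 without cas arrays 2 and 3, 0.16 when cas array 3 was left out before group means were subtracted, and -0.22 within set 2.

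**Figure D4:**
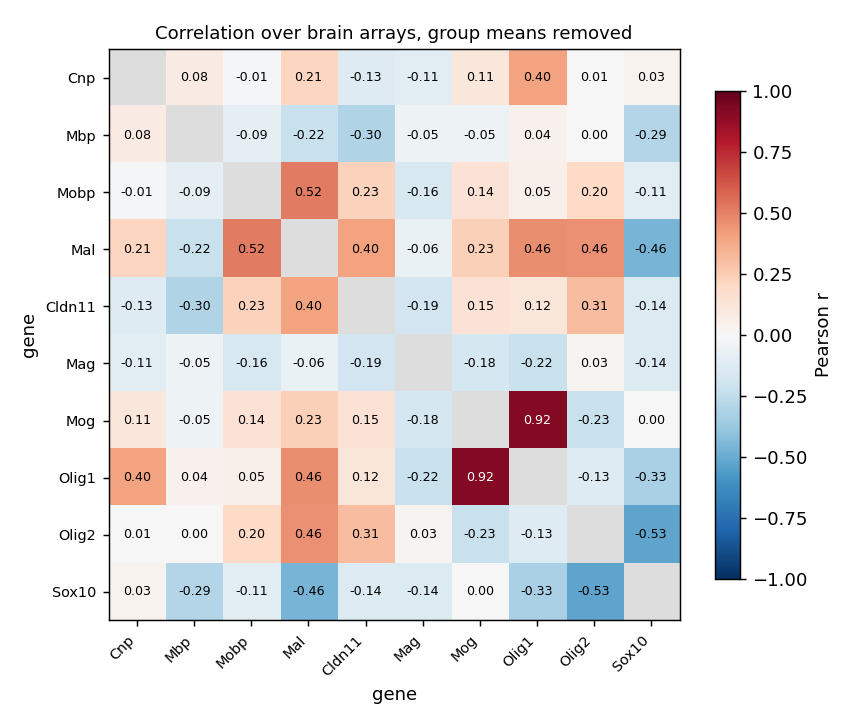
Pearson r between member genes over brain arrays after subtracting group means (24 arrays, or 12 where Cldn11 or Olig1 is in the pair); Mbp is the mean of its 2 probes. Mog with Olig1 stands out at 0.92, and the remaining pairs lie between -0.53 and 0.52.

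The mean profile of the sheath genes was then set against 14925 probes. The 10 named genes most like it were Fmo5, Aff2, Ube2q1, Endou, Akr1a1, Mfsd2a, Fam20c, Nat8f2, Pstpip2 and Pcp4, with r from 0.81 to 0.85 over 24 arrays. Members were left out of this ranking beforehand, and none of the 10 belongs to the wider list. Cldn11 entered the mean profile on its 12 arrays with a value, and had the largest SD within groups of the sheath genes (0.416). It was not ranked itself, because a ranked probe needed 22 values. The profile also holds the Mog value of cas array 3, which was 1.60 before the group mean was subtracted. Spot pairs on that array had the lowest r of the brain arrays (0.27), and the ranking was not repeated without it. Each of the other sheath genes, against the profile made without it, had r of 0.43 for Mal (rank 1311), 0.30 for Mobp (rank 2631), 0.15 for Mog (rank 4607), 0.08 for Cnp (rank 5984), -0.22 for Mag (rank 10983), and -0.07 and -0.36 for the Mbp probes B and A. Olig2 had 0.19 and Sox10 -0.32.

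In liver/kidney and in testis, 0 of the 9 probes passed the limma F test over the 5 groups, beside 6.51% and 4.29% of all probes. At an unadjusted p under 0.05, Mag passed in liver/kidney (p 0.0315, adjusted 0.174) and Olig2 in testis (p 0.0423, adjusted 0.261), each 1 of 9 probes beside 22.7% and 17.6% of all probes. Leaving out 1 array added a call of Mag or Mbp A in liver/kidney (without cas array 2 or spretus array 1) and of Mag in testis (without spretus array 1).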

How the data were processed

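The values deposited by the authors are processed log ratios of 2-colour arrays, taken here as log2, with 46128 spots per array. No source used here gives their log base and direction, or how signals were scanned, background-corrected and normalised, and their array medians of -0.03 to 0.02 in brain show centring near 0. Duplicate spots lie next to each other, as the probe table shows, and were averaged into 22089 probes (repeated Gapdh pairs into 1); 15801 had 1 symbol, 294 several and 5994 none. Brain arrays had values on 42947 to 44398 spots, and spot pairs correlated at a median r of 0.44 (0.27 to 0.67). Each array was centred on its median.

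Probes with at least 2 values in every group were tested with limma 3.58.1 (R 4.3.3; lmFit, contrasts over the 5 groups, eBayes), with p-values adjusted by Benjamini-Hochberg over all probes tested. The script was tested on simulated data. Correlations used 100000 permutations (SciPy 1.17.1). RefSeq sequences matched 7 of 10 members. The members, gene lists and named-gene rule (all members, the 10 most similar named probes, up to 3 called genes of the wider list per contrast) were chosen with earlier results of these data known. Same-numbered arrays of different groups correlated between -0.08 and 0.10, so the numbers were not taken as pairs. Alternatives changed normalisation, centring, duplicate spots, missing values, array weights, spot sets, the number as a block, and single arrays; leaving out discordant spot pairs was added after seeing the data.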

Additional observations from a re-analysis of the deposited data

Results flagged for a closer look

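Dixon's check was run on 27 groups of 6 brain arrays (each probe in dom, mus and ssp). In 3 of them 1 array lay farther from the other 5 than the 95% value of 0.625 allows. That value flags about 1 in 20 groups of normally distributed values. The share flagged over all probes was not computed, so 3 of 27 is not read as an excess. Mobp read -0.46 on ssp array 5, with a gap of 0.702 of the range and spots at -0.22 and -0.70. Olig2 read -0.22 on dom array 6, with a gap of 0.697 of the range and spots at -0.10 and -0.35. Sox10 read -1.60 on ssp array 4, with a gap of 0.765 of the range and only 1 spot with a value.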

How the results depend on the processing

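The counts of called member probes stayed at 0 under every alternative for mus minus dom, the ssp contrast and the comparison with the pool. In the spretus contrast, array weights called 1 member probe (Mbp A), beside 3187 of all 20621 probes. The main fit called 814. With the missing-spot set as a term 1 member probe was called (Mog), beside 1165 of all 20252 probes. Leaving out single arrays gave 0 to 1. The set term also gave 1 call in the brain F test (Mog, adjusted p 0.0256), beside 1007 of all 20252 probes. There, single arrays left out gave 0 to 1. That range was 0 to 1 for the cas contrast, for liver/kidney and for testis, and 0 to 0 for the other contrasts and for the correlated pairs. Of the 1512 alternative values for the 45 probe and contrast values in brain, 5 gained a call, 0 reversed a call, and 76 changed sign while passing in neither setting. With the animal number as a replicate block, 0 member probes were called in the group contrasts, while 1 correlated pair was called (Mal and Mobp, adjusted p 0.0336). Among 20 arrays with a namesake, 2 correlated best with it. In the wider list, the block ended the spretus calls of Nkx2-2 (0.35, adjusted p 0.0639) and Ndrg1 (-0.38, adjusted p 0.100), with differences close to those without it. Array weights ended the calls of Pmp22 and Aspa against the pool (-0.10 and -0.08, adjusted p 0.0576 and 0.117), and the first spot of each pair ended that of Pmp22 (-0.09, adjusted p 0.109). The number of cas and spretus arrays limits the precision: standard errors for members reached 0.22 in the cas contrast and 0.21 in the spretus contrast.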
